A study of Canis lupus familiaris with 6 samples.

Results

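The genes described here store iron, take it up or sense it, and they were read in whole blood of Beagle dogs. They were chosen by symbol (FTH1, FTL, TFRC, TFR2, NCOA4, IREB2, ACO1, HFE, PCBP1 and STEAP3), and 9 of the 10 symbols were found in the deposited table. FTH1 stands there for a pair of genes, so the symbols gave 10 genes of the 31512 listed. PCBP1 is no symbol of the table. The dogs were healthy adults of 1.5 years, and 12 took part in the study. CPP-Se is selenium chelated by casein phosphopeptides of milk. A snack of 30 g, fed after the maintenance food, held none of it in the control group and 0.03% of it in the CPP-Se group. RNA was sequenced for 3 control and 3 CPP-Se replicates on day 30. The labels call them biological replicates, and each is taken here as 1 dog.

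Iron inside a cell is kept in ferritin, a hollow shell built of heavy chains (FTH1), which oxidize iron, and light chains (FTL), which help it to mineralize. NCOA4 carries ferritin to the lysosome, where the iron is set free. Transferrin-bound iron enters through the transferrin receptor TFRC and is reduced in the endosome by STEAP3, while the iron regulatory proteins ACO1 and IREB2 bind iron-responsive elements of mRNA, which holds back the translation of ferritin and keeps TFRC mRNA from decay when iron is short. Developing red cells use most of the iron for heme, and macrophages recycle it, mostly outside the circulating blood.

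The genes of the table held 6598173 to 8067034 reads in each dog. Hemoglobin genes held 48.7% to 55.9% of these reads in 5 dogs and 36.6% in CPP-Se replicate 2, so this library stood apart. The library size implied by its FPKM was 1.65 times its reads on genes, against 0.882 to 1.05 times in the other dogs, so its deposited FPKM are low for its reads. Its levels depend on the scaling. FTL in this library was 3502 FPKM as deposited and 5372 with FPKM scaled to a common sum, which includes the hemoglobin genes. It was 4582 with a common sum without them, and 3520 when scaled by the median of ratios of genes to their mean over the dogs. Which scaling is right was not tested. Levels are FPKM, fragments per kilobase of gene scaled to the depth of the library, and each gene was compared between the groups on log2(FPKM + 1), which lowers the fold change of genes near 1 FPKM. In blood, fewer cells of a type and less RNA per cell cannot be told apart. Markers of red cells, platelets, T cells, B cells, monocytes and neutrophils were all present, and no marker gene found in the table was at 0 in every dog.

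None of the iron genes passed the test between the groups. Of the 10 genes, 9 had a mean of at least 1 FPKM and were tested, and 0 had an adjusted p under 0.05 with a fold change of at least 1.5 (limma with Benjamini-Hochberg adjustment), where 0.0305% of all 9847 genes tested did. Before adjustment, 0 of the 9 reached a p under 0.05, which 16% of all genes tested did (6.87% higher and 9.1% lower with CPP-Se). The dogs of the groups overlapped in each of the 10 genes, while 23% of all genes tested did not overlap. The number of iron genes called was also 0 with limma-voom, with its version that weights samples by quality and with a negative binomial model of the reads, which called 0.0102%, 1.58% and 4.49% of all genes tested. The log2 fold changes were above 0 for 5 genes and below 0 for 4, with a median of 0.07 beside -0.0043 over all genes tested.

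**Figure D1:**
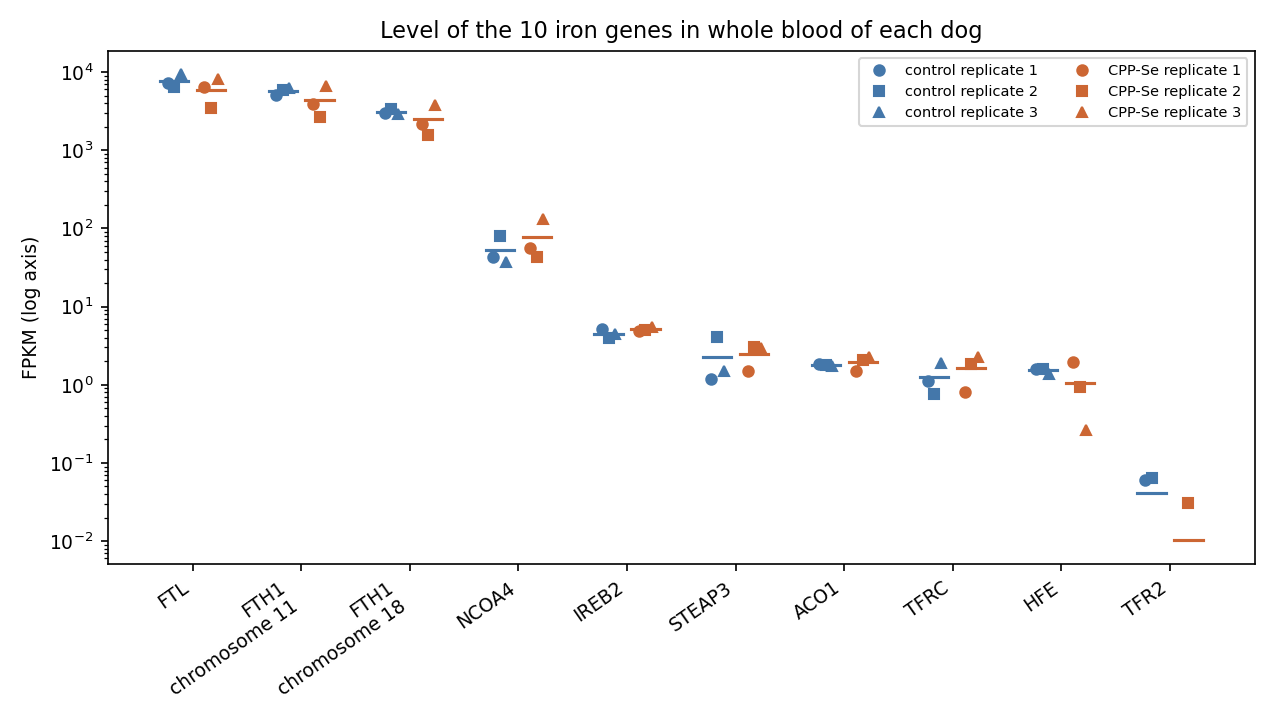
FPKM of the 10 iron genes on a log axis, with 1 point per dog and a bar at the mean of each group of 3 dogs; dogs at 0 FPKM (TFR2) are not drawn. The ferritin genes lie at 1575 FPKM or more in every dog and TFR2 below 0.1 FPKM, and the dogs of the groups overlap in each gene.

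The storage genes were among the most abundant transcripts of the blood. FTL (ENSCAFG00000003861, chromosome 1, 107418458 to 107419923 of the Ensembl release 100 dog genome) ranked between 3 and 5 of all genes in every dog by FPKM. Its level was 7323, 6477 and 9418 FPKM in control replicates 1, 2 and 3, and 6345, 3502 and 8049 FPKM in CPP-Se replicates 1, 2 and 3. CPP-Se replicate 2 was below the other 5 dogs, CPP-Se replicate 1 was just below the lowest control dog, and CPP-Se replicate 3 lay among the control dogs. With FPKM scaled to a common sum, FTL in CPP-Se replicate 2 was 5372, still the lowest but close to the next dogs at 5830 and 5931. The means were 7740 ± 1514 and 5965 ± 2297 FPKM (SD, n = 3 in each group), and the log2 fold change was -0.44 (standard error 0.40, 95% interval -1.37 to 0.49, adjusted p = 0.630 from limma).

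The pair of FTH1 genes differ in their gene models. FTH1 on chromosome 18 (ENSCAFG00000015901, 54466023 to 54468732) spans 2710 bases for a gene length of 906, so most of its span is intron. FTH1 on chromosome 11 (ENSCAFG00000030465, 39037318 to 39038079) spans 762 bases for a length of 711. The latter had the higher level, with 5099, 5809 and 6242 FPKM in the control dogs and 3882, 2644 and 6673 FPKM in the CPP-Se dogs. FTH1 on chromosome 18 had 2965, 3410 and 2864 FPKM in the control dogs and 2180, 1575 and 3745 FPKM in the CPP-Se dogs. In both genes CPP-Se replicates 1 and 2 were below all control dogs and CPP-Se replicate 3 was above them. With a common sum, CPP-Se replicate 1 and not replicate 2 was the lowest dog in both, at 3628 and 2038 against 4057 and 2417. CPP-Se replicate 3 then lay among the control dogs on chromosome 11 (5752, against 4990 to 6334). On chromosome 18 it was still above them (3229, against at most 3069). The level on chromosome 11 was 1.68 to 2.18 times that on chromosome 18 across the 6 dogs. As the genes encode the same chain and the handling of reads that fit several genes is not stated for these values, the division of reads between them is uncertain.

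The log2 fold changes of the FTH1 genes were -0.48 on chromosome 11 (standard error 0.39, adjusted p = 0.597 from limma) and -0.39 on chromosome 18 (standard error 0.36, adjusted p = 0.640). Their size depended on single dogs. Without CPP-Se replicate 3 the values were -0.83 and -0.73, each with an adjusted p of 0.285, and without CPP-Se replicate 2 they were -0.16 and -0.10. FTL went from -0.70 to -0.10 in the same fits. Among the reads outside the hemoglobin genes, the named ferritin genes took up 2.60%, 2.59% and 3.20% in control replicates 1 to 3 and 2.18%, 1.68% and 3.07% in CPP-Se replicates 1 to 3. These shares overlapped between the groups as well.

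Ferritin shells differ in their heavy and light chains, and the balance of the transcripts is free of scaling between libraries. The summed FPKM of the FTH1 genes was 1.10, 1.42 and 0.967 times that of FTL in the control dogs, against 0.955, 1.20 and 1.29 times in the dogs given CPP-Se. The groups covered nearly the same range, with a difference of -0.0081 in the mean log2 ratio (exact permutation test, two-sided, p = 0.9, where 3 dogs against 3 cannot give less than 0.1). The sign of this difference turned when unnamed ferritin genes were added, when FTH1 on chromosome 18 was used alone and when some single dogs were left out.

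The table describes 23 genes as ferritin, and 20 of them have no symbol. Of these 20, 6 had a mean of at least 1 FPKM, another 10 had no more than 12 reads in any dog, and 4 were at 0 in every dog. Of the 6, 4 are named here, chosen after their values were seen. The other two, light chain copies on chromosomes 22 and 15, had at most 64 and 14 reads in a dog and overlapped between the groups. The highest was ENSCAFG00000005494, described as a ferritin light chain (chromosome 23, 16294338 to 16295324, a span of 987 bases for a length of 935). Its level was 1865, 1624 and 282 FPKM in the control dogs and 177, 99.8 and 266 FPKM in the CPP-Se dogs. Control replicates 1 and 2 were far above the other 4 dogs, and control replicate 3 was only just above CPP-Se replicate 3. This gene held 20.1% and 19.9% of the light chain reads in control replicates 1 and 2, and 2.62% to 3.15% in the other dogs.

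The log2 fold change of this light chain copy was -2.50 (standard error 0.72, adjusted p = 0.188 from limma). It lay between -3.37 and -2.01 with each dog left out in turn. The negative binomial model called it (adjusted p = 0.000233) and so did limma-voom weighted by sample quality (adjusted p = 0.0445). Over the other settings its adjusted p was 0.0706 to 0.488. Groups without overlap and lower with CPP-Se were found in 12.6% of all genes tested.

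Other unnamed copies varied between single dogs. ENSCAFG00000049928, described as a heavy chain (chromosome 23, 2687357 to 2688494), had 267, 267 and 964 reads in control dogs, against 297, 301 and 24 reads in CPP-Se dogs. ENSCAFG00000041996, also described as a heavy chain (chromosome 8, 30063043 to 30063837), had 133, 107 and 441 reads in control dogs, against 154, 144 and 5 reads in CPP-Se dogs. Both were highest in control replicate 3 and lowest in CPP-Se replicate 3, the dog in which the FTH1 genes were highest in deposited FPKM. In reads, the FTH1 genes too were highest in control replicate 3, at 35678 on chromosome 11 and 20860 on chromosome 18. ENSCAFG00000049928 lies wholly within the spans of ABHD5 and ANO10, which had at most 138 and 86 reads in a dog. The light chain copy ENSCAFG00000002336 (chromosome 13, 49981161 to 49982168) had 370, 303 and 632 FPKM in the control dogs and 444, 262 and 422 FPKM in the CPP-Se dogs, and overlapped between the groups (limma, log2 fold change -0.18 ± 0.34 standard error, adjusted p = 0.844, and from -0.40 without control replicate 2 to 0.13 without control replicate 3). In limma 0 of the 6 passed the thresholds. Unnamed genes held 6.36% to 14.4% of all ferritin reads in the control dogs and 4.15% to 6.03% in the CPP-Se dogs.

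**Figure D2:**
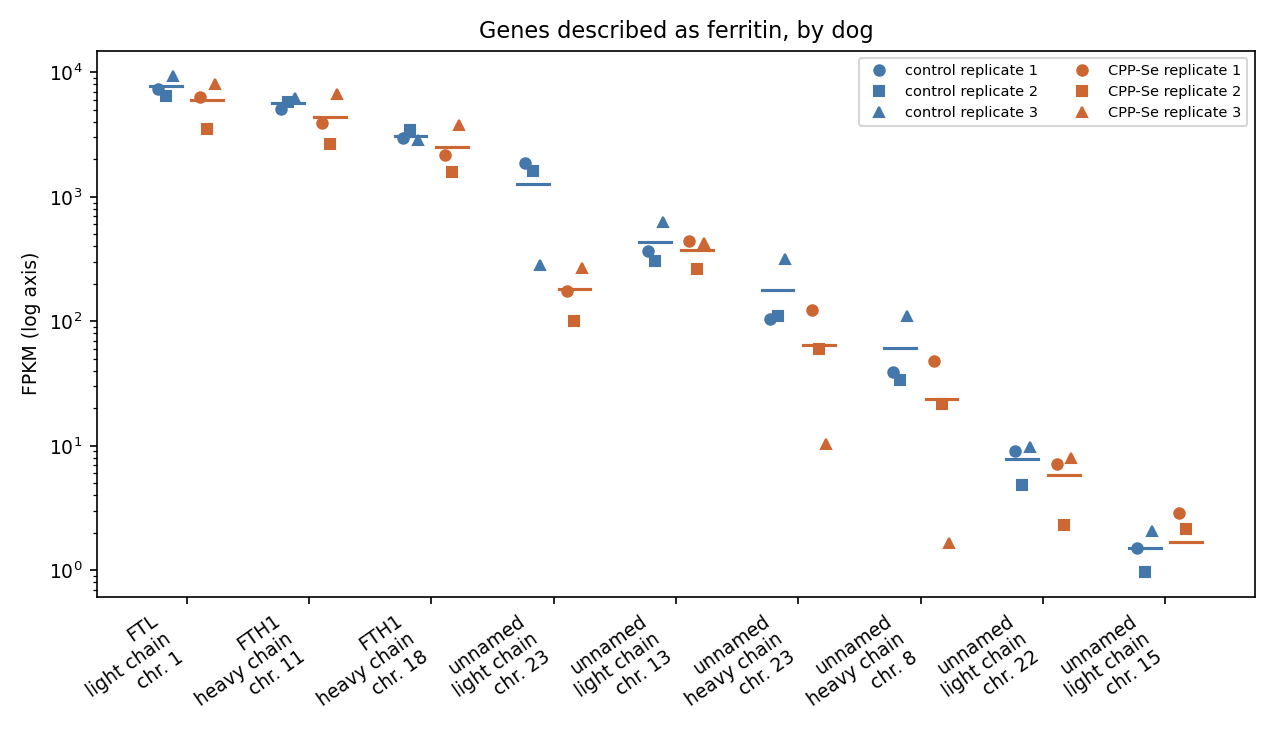
FPKM on a log axis of the 9 tested genes that the table describes as ferritin, 3 with a symbol and 6 without, with 1 point per dog and a bar at each group mean; a dog at 0 FPKM is not drawn. The unnamed light chain gene on chromosome 23 separates control replicates 1 and 2, at 1865 and 1624 FPKM, from the other 4 dogs, at 99.8 to 282 FPKM.

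NCOA4, the receptor that brings ferritin to lysosomes for breakdown, had the largest standard deviation of log2(FPKM + 1) over the dogs among the iron genes tested, a measure that is compressed for genes near 1 FPKM. By the ratio of the highest to the lowest dog, HFE varied more (7.41-fold, against 3.60-fold for NCOA4). NCOA4 (ENSCAFG00000006809, chromosome 28, 1802678 to 1825020) had 42.9, 80.3 and 36.8 FPKM in the control dogs and 56.8, 42.6 and 132 FPKM in the CPP-Se dogs. The dogs of the groups were interleaved, with control replicate 2 second and CPP-Se replicate 3 highest. Its log2 fold change was 0.44 (standard error 0.45, 95% interval -0.61 to 1.49, adjusted p = 0.677 from limma), without CPP-Se replicate 3 it was -0.03, and without CPP-Se replicate 2 it was 0.78.

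The gene most like NCOA4 over the 6 dogs was EPB41, the red cell membrane protein 4.1, among all tested genes with a symbol. Likeness was the root-mean-square difference of log2(FPKM + 1) after the mean of each gene over the dogs had been subtracted, which was 0.0552 for EPB41, beside a standard deviation of 0.69 for NCOA4 itself. NCOA4 was 3.60 times as high in the highest dog as in the lowest, while its ratio to EPB41 lay between 0.325 and 0.364. EPB42, another protein of the red cell membrane skeleton, and SH3BGRL came next, with differences of 0.17 for both. EPB41 and EPB42 are among the red cell markers, whose summed level was 726 to 1971 FPKM in the control dogs and 1341 to 2267 FPKM in the CPP-Se dogs, with overlap. The part of red cells in the levels of NCOA4 was not tested.

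FTH1 on chromosome 11 came next by the standard deviation of log2(FPKM + 1), with 0.51, though not by the ratio of the highest to the lowest dog. The genes most like it were IGF2BP3, an RNA-binding protein, with a difference of 0.0761, and the ribosomal protein genes RPLP0 and RPS6, with differences of 0.0913 and 0.11. Its ratio to IGF2BP3 lay between 384 and 470 (highest over lowest 1.23), while its own level was 2.52 times as high in the highest dog as in the lowest. RPLP0 had 1007, 1062 and 1168 FPKM in the control dogs and 671, 522 and 1112 FPKM in the CPP-Se dogs. In deposited FPKM, CPP-Se replicate 2 was the lowest dog in FTH1 and in these 3 genes, and the part of its implied library size in this was not tested.

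**Figure D3:**
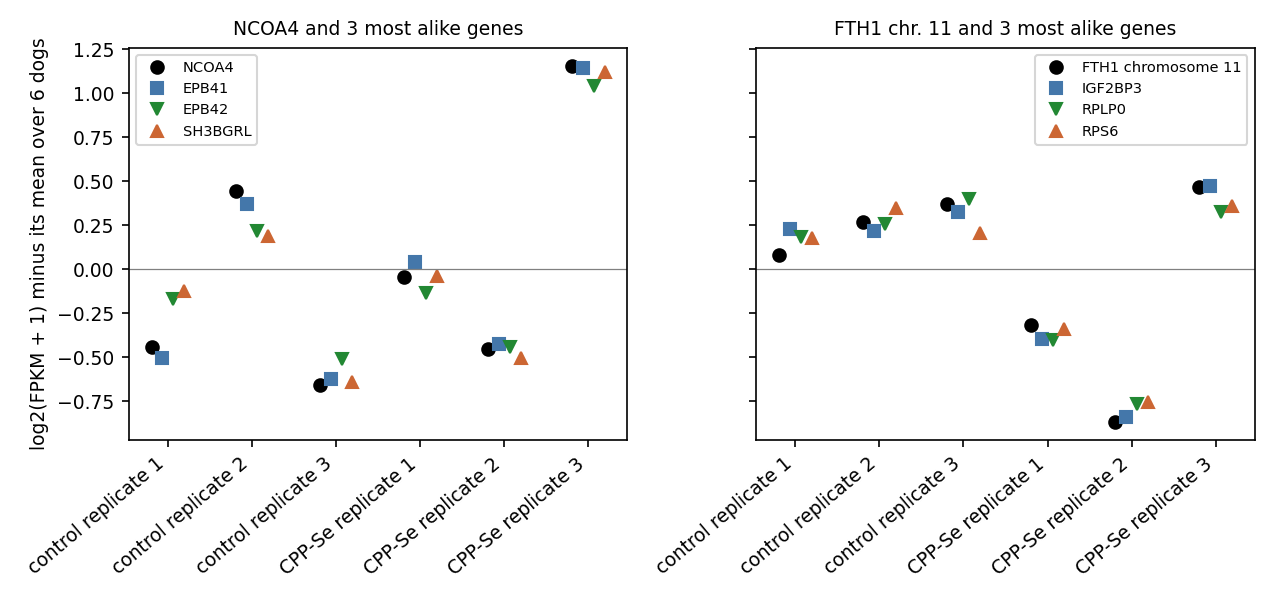
Deviation of log2(FPKM + 1) from its mean over the 6 dogs for NCOA4 (left) and FTH1 on chromosome 11 (right), each with the 3 tested genes most like it; each symbol is 1 gene in 1 dog. NCOA4 and EPB41 lie together in every dog and are highest in CPP-Se replicate 3, and FTH1 is lowest in CPP-Se replicate 2 together with IGF2BP3, RPLP0 and RPS6.

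The sensors of iron were low, and in deposited FPKM they varied 1.39-fold (IREB2) and 1.51-fold (ACO1) between the dogs. With FPKM scaled to a common sum both varied more, 2.21-fold and 2.23-fold, with CPP-Se replicate 2 highest. IREB2, which is broken down when iron is ample (ENSCAFG00000001766, chromosome 13, 38400591 to 38441015), had 5.21, 3.92 and 4.43 FPKM in the control dogs and 4.88, 5.07 and 5.46 FPKM in the CPP-Se dogs. CPP-Se replicate 3 was above all control dogs, and the other CPP-Se dogs lay within their range, while with a common sum CPP-Se replicate 2 was above them (7.78 against at most 5.10) and CPP-Se replicate 3 within their range (4.71). The log2 fold change of IREB2 was 0.16 (standard error 0.18, 95% interval -0.25 to 0.57, adjusted p = 0.703 from limma), and it was 0.079 without control replicate 2, 0.25 without control replicate 1 and 0.29 with a common sum. On this scale a pseudocount of 1 FPKM narrows the interval of a gene this low. ACO1, which is an aconitase when it carries an iron-sulfur cluster (ENSCAFG00000001786, chromosome 11, 49699109 to 49923257), had 1.83, 1.81 and 1.76 FPKM in the control dogs and 1.51, 2.05 and 2.28 FPKM in the CPP-Se dogs. The control dogs lay within the range of the CPP-Se dogs in both scalings. The log2 fold change of ACO1 was 0.07 (standard error 0.21, 95% interval -0.42 to 0.56, adjusted p = 0.910), and it was -0.02 without CPP-Se replicate 3. The gene model of ACO1 overlaps those of SMIM27, TOPORS and DDX58, so part of its 52 to 147 reads per dog could come from these genes.

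The uptake genes were near the lower limit of the genes tested. TFRC (ENSCAFG00000012941, chromosome 33, 29208609 to 29238242) had 28, 18 and 57 reads in control dogs, against 19, 92 and 51 reads in CPP-Se dogs. In FPKM these were 1.11, 0.764 and 1.92 against 0.804, 1.87 and 2.26. Low and high dogs were found in both groups. The log2 fold change of TFRC was 0.21 (standard error 0.32, adjusted p = 0.792 from limma), and it lay between 0.04 without CPP-Se replicate 3 and 0.46 without CPP-Se replicate 1. TFRC per 1000 FPKM of the summed FTH1 genes was 0.138, 0.0829 and 0.211 FPKM in the control dogs and 0.133, 0.443 and 0.217 FPKM in the CPP-Se dogs. The mean log2 ratio was 0.80 higher in the CPP-Se group (standard deviation 0.67 for control and 0.87 for CPP-Se, exact permutation test, two-sided, p = 0.4). Without CPP-Se replicate 2, the dog with the highest ratio, the difference was 0.34.

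STEAP3, the ferrireductase of the endosome (ENSCAFG00000004901, chromosome 19, 30747921 to 30795338), had 1.20, 4.11 and 1.48 FPKM in the control dogs and 1.49, 3.06 and 2.95 FPKM in the CPP-Se dogs. In deposited FPKM control replicate 2 was the highest dog, while with a common sum CPP-Se replicate 2 was (4.70 against 3.70). For STEAP3 the log2 fold change was 0.17 (standard error 0.37, adjusted p = 0.860 from limma). It was -0.06 without control replicate 1 and 0.55 without control replicate 2. HFE, an MHC class I-like protein that binds the transferrin receptor (ENSCAFG00000010925, chromosome 35, 24031387 to 24042413), had 27, 25 and 27 reads in control dogs, against 31, 31 and 4 reads in CPP-Se dogs. In FPKM it was 1.61, 1.60 and 1.37 against 1.97, 0.946 and 0.266. CPP-Se replicate 3 was the lowest dog and CPP-Se replicate 1 the highest. The log2 fold change of HFE was -0.38 (standard error 0.34, adjusted p = 0.625), and it went from -0.07 without CPP-Se replicate 3 to -0.68 without CPP-Se replicate 1. It was -0.82 with limma-voom and -0.81 with a pseudocount of 0.1.

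TFR2, the transferrin receptor through which liver and early red cells sense iron (ENSCAFG00000014311, chromosome 6, 9060629 to 9076158), had 1, 1 and 0 reads in control dogs, against 0, 1 and 0 reads in CPP-Se dogs. Each is below the floor of 3 reads used here, so no fold change is given, and a difference was not detectable at this depth. Its gene model lies within that of GIGYF1, which had up to 3238 reads in a dog.

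PCBP1 is an iron chaperone that hands iron to ferritin. A gene without a symbol, ENSCAFG00000003326 (chromosome 10, 68673036 to 68687841), is described in the table as poly(rC)-binding protein 1, and it was taken up after its values were seen. Its level was 64.1, 79.0 and 77.3 FPKM in the control dogs and 86.0, 81.8 and 94.6 FPKM in the CPP-Se dogs. The CPP-Se dogs were all above the control dogs, as in 10.4% of the genes tested. The log2 fold change was 0.25 (standard error 0.18, 95% interval -0.17 to 0.67, adjusted p = 0.544 from limma), and it was 0.16 without control replicate 1 and 0.41 with a common sum. The second gene of this description, on the X chromosome, had 1 read in all.

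**Figure D4:**
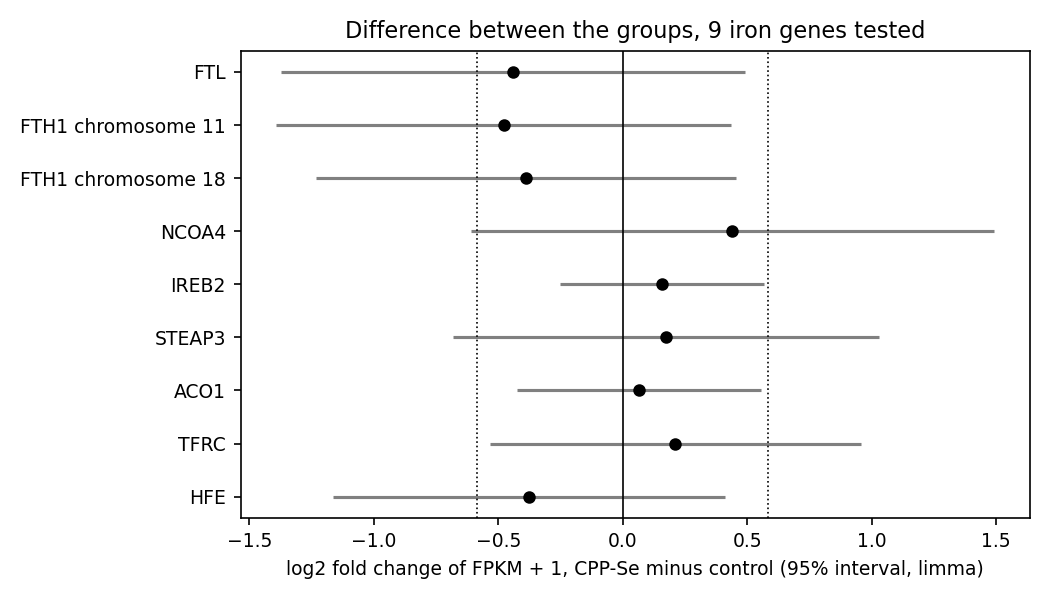
Log2 fold change (CPP-Se minus control) of FPKM + 1 for the 9 iron genes tested, as points with 95% intervals from limma over 6 dogs; dotted lines mark a 1.5-fold change of FPKM + 1. Every interval includes 0.

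By mean FPKM over the 6 dogs the order was FTL, FTH1 on chromosome 11, FTH1 on chromosome 18, NCOA4, IREB2, STEAP3, ACO1, TFRC, HFE and TFR2. The 3 ferritin genes kept this order within each of the 6 dogs, although their ranges over the dogs overlapped. FTH1 on chromosome 18 was 42.7 times as high as NCOA4, and NCOA4 13.5 times as high as IREB2, without overlap in either case. IREB2 and STEAP3, STEAP3 and ACO1, ACO1 and TFRC, and TFRC and HFE were neighbours with overlapping ranges, and STEAP3 and ACO1, like TFRC and HFE, each changed places in 3 of the 6 dogs.

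The rest of iron handling was read in 7 further lists of 71 genes, of which 58 were found and 40 tested. These cover ferrous iron transport, iron export and heme recycling, mitochondrial iron and iron-sulfur clusters, partners of the sensors, secreted iron binders, systemic control, and other transcripts with an iron-responsive element. Of the 40, 0 passed the thresholds (limma with Benjamini-Hochberg adjustment, with 0.222 as the lowest adjusted p). Before adjustment, 8 genes reached a p under 0.05, 3 higher and 5 lower with CPP-Se (20%, against 16% of all genes tested). The groups did not overlap in 7 genes, 3 higher and 4 lower (17.5%, against 23% of all genes tested), and 5 of these 7 did not overlap with a common sum either. With a common sum 13.8% of all genes tested did not overlap, whatever their overlap in deposited FPKM. That share is therefore no background for the 5 of 7. The negative binomial model called 2 of the 40, CD163 and LTF, where it called 4.49% of all genes tested, and limma-voom weighted by sample quality called 0, where it called 1.58%.

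The 4 genes that were lower with CPP-Se without overlap in deposited FPKM were SLC11A1, SLC40A1, LTF and CD163, and 0 of them passed the thresholds in limma. With FPKM scaled to a common sum, which raises CPP-Se replicate 2, SLC11A1 and LTF overlapped between the groups. Scaled by the median of ratios, which hardly moves that library, their log2 fold changes were -0.54 and -0.60 (adjusted p = 0.255 and 0.228 from limma). SLC11A1, the iron and manganese transporter of phagocytic vacuoles, had 56.6, 48.9 and 63.3 FPKM in the control dogs and 37.4, 43.4 and 33.5 FPKM in the CPP-Se dogs (log2 fold change -0.55, standard error 0.19, adjusted p = 0.245 from limma, and 0.798 with a common sum). With a common sum CPP-Se replicate 2 was the highest of the 6 dogs, at 66.6 against 44.0 to 64.3 in the control dogs. SLC40A1, or ferroportin, the iron exporter, had 36.7, 45.6 and 28.3 FPKM against 27.9, 17.8 and 25.1 FPKM. It did not overlap as deposited (log2 fold change -0.62, adjusted p = 0.282) or with a common sum (-0.47, adjusted p = 0.718). LTF, the lactoferrin of neutrophil granules, had 202, 185 and 150.6 FPKM against 126, 119 and 103 FPKM, with CPP-Se replicate 2 at 183 and above control replicates 2 and 3 under a common sum (log2 fold change -0.62, standard error 0.20, adjusted p = 0.222, 0.726 with a common sum and 0.0471 with the negative binomial model). CD163, the scavenger receptor for hemoglobin bound to haptoglobin, had 54, 93 and 66 reads against 24, 53 and 3 reads. Its FPKM did not overlap as deposited or with a common sum (log2 fold change -0.89, standard error 0.31, adjusted p = 0.240, and 0.564 with a common sum). The negative binomial model gave CD163 a log2 fold change of -1.87 (adjusted p = 0.042). The log2 fold changes of STEAP4, CYBRD1 and LCN2 were -1.11, -0.96 and -1.40, with adjusted p of 0.264, 0.339 and 0.381 and with overlap of the groups. STEAP4 was at -0.68 without CPP-Se replicate 1, CYBRD1 at -0.56 without CPP-Se replicate 3 and LCN2 at -2.19 without control replicate 1.

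The summed level of 9 monocyte markers, CD163 among them, was 844 to 994 FPKM in the control dogs and 404 to 471 FPKM in the CPP-Se dogs, and that of 7 neutrophil markers was 2240 to 2997 FPKM against 1736 to 2227 FPKM, without overlap in either list in deposited FPKM. With a common sum the monocyte markers still did not overlap (840 to 973 against 348 to 722), while the neutrophil markers did (2016 to 2933 against 1497 to 2771). T cell markers (99.7 to 187 FPKM against 208 to 285 FPKM) and B cell markers (278 to 398 FPKM against 426 to 467 FPKM) were above the control dogs in all 3 CPP-Se dogs, and with a common sum the B cell markers overlapped. Of these marker genes, 0 passed the thresholds in limma, while the negative binomial model called 5 of 8 monocyte, 3 of 7 neutrophil, 4 of 10 T cell, 1 of 8 B cell and 3 of 17 red cell markers tested (4.49% of all genes tested), and limma-voom weighted by sample quality called 3, 1, 2, 0 and 1 (1.58% of all). Before adjustment, 7 of the 8 monocyte markers had a p under 0.05 in limma, against 16% of all genes tested. So did 4 of 7 neutrophil, 5 of 10 T cell, 5 of 8 B cell, 5 of 17 red cell and 0 of 6 platelet markers. The red cell markers had a median log2 fold change of 0.48, with 11 above 0 and 6 below. The medians were -0.93 for monocyte, -0.80 for neutrophil, 0.74 for T cell, 0.64 for B cell and -0.05 for platelet markers. The part of these cells in the values of SLC11A1, SLC40A1, LTF and CD163 was not tested.

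In the mitochondrial list, 4 of 12 genes tested had a log2 fold change above 0 and 8 below, with a median of -0.12 beside -0.0043 over all genes tested. With FPKM scaled to a common sum these medians were 0.01 and 0.13. IBA57, which helps to build 4Fe-4S clusters, had 6.33, 5.12 and 5.50 FPKM in the control dogs and 16.8, 8.72 and 7.22 FPKM in the CPP-Se dogs (log2 fold change 0.76, standard error 0.29, adjusted p = 0.270 from limma). FDXR, the reductase that supplies electrons to ferredoxin, had 4, 13 and 13 reads against 30, 46 and 22 reads (log2 fold change 0.76, adjusted p = 0.252). For FDXR the value was 1.45 with a pseudocount of 0.1 and 1.46 with the negative binomial model (adjusted p = 0.0990). It was 1.98 with limma-voom weighted by sample quality (adjusted p = 0.0765). IBA57 and FDXR were higher in all 3 CPP-Se dogs than in any control dog in both scalings, and IBA57 was at 0.43 without CPP-Se replicate 1. GLRX5, a carrier of iron-sulfur clusters, was spread from 3.84 to 20.4 FPKM in the control dogs and from 3.66 to 7.11 FPKM in the CPP-Se dogs, with a log2 fold change of -0.95 (adjusted p = 0.410), which lay between -0.46 without control replicate 2 and -1.53 without control replicate 3.

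Among the partners of the sensors, PCBP4, a relative of PCBP1, had a mean of 9.03 ± 1.16 FPKM without CPP-Se and 15.2 ± 4.16 FPKM with it (SD, n = 3), and the dogs did not overlap (log2 fold change 0.67, standard error 0.22, adjusted p = 0.224 from limma). FBXL5, the iron-sensing ubiquitin ligase subunit that marks IREB2 for breakdown, had a log2 fold change of -0.57 (adjusted p = 0.390), and B2M, the light chain that HFE needs at the cell surface, -0.44 (adjusted p = 0.534), both with overlap. FBXL5 was at -0.33 without CPP-Se replicate 1, and B2M at -0.20 without CPP-Se replicate 2 and -0.72 without CPP-Se replicate 3. In systemic control only SMAD4 and BMPR2 reached a mean of 1 FPKM, at -0.25 and -0.48 (-0.076 and -0.19 without CPP-Se replicate 1), and HAMP, the hepcidin gene, had 2 reads in 1 dog and 0 in the other 5. Of the other transcripts with an iron-responsive element, ALAS2, the first enzyme of red cell heme synthesis, had 1545, 2292 and 1085 FPKM in the control dogs and 1737, 883 and 2183 FPKM in the CPP-Se dogs. Its log2 fold change was -0.07 (standard error 0.43, adjusted p = 0.957), and it turned to 0.09 with FPKM scaled to a common sum. CDC14A was at 0.16, with overlap of the groups. In the list of export and heme recycling, LRP1, a receptor for heme bound to hemopexin, was at -0.69 (adjusted p = 0.516), also with overlap. LRP1 was at 4.99 FPKM in CPP-Se replicate 3 and at 17.1 to 26.5 FPKM in the other dogs, and its value was -0.11 without that dog. CDC14A was lowest in control replicate 2, at 1.70 FPKM, and its value was 0.0019 without that dog.

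**Figure D5:**
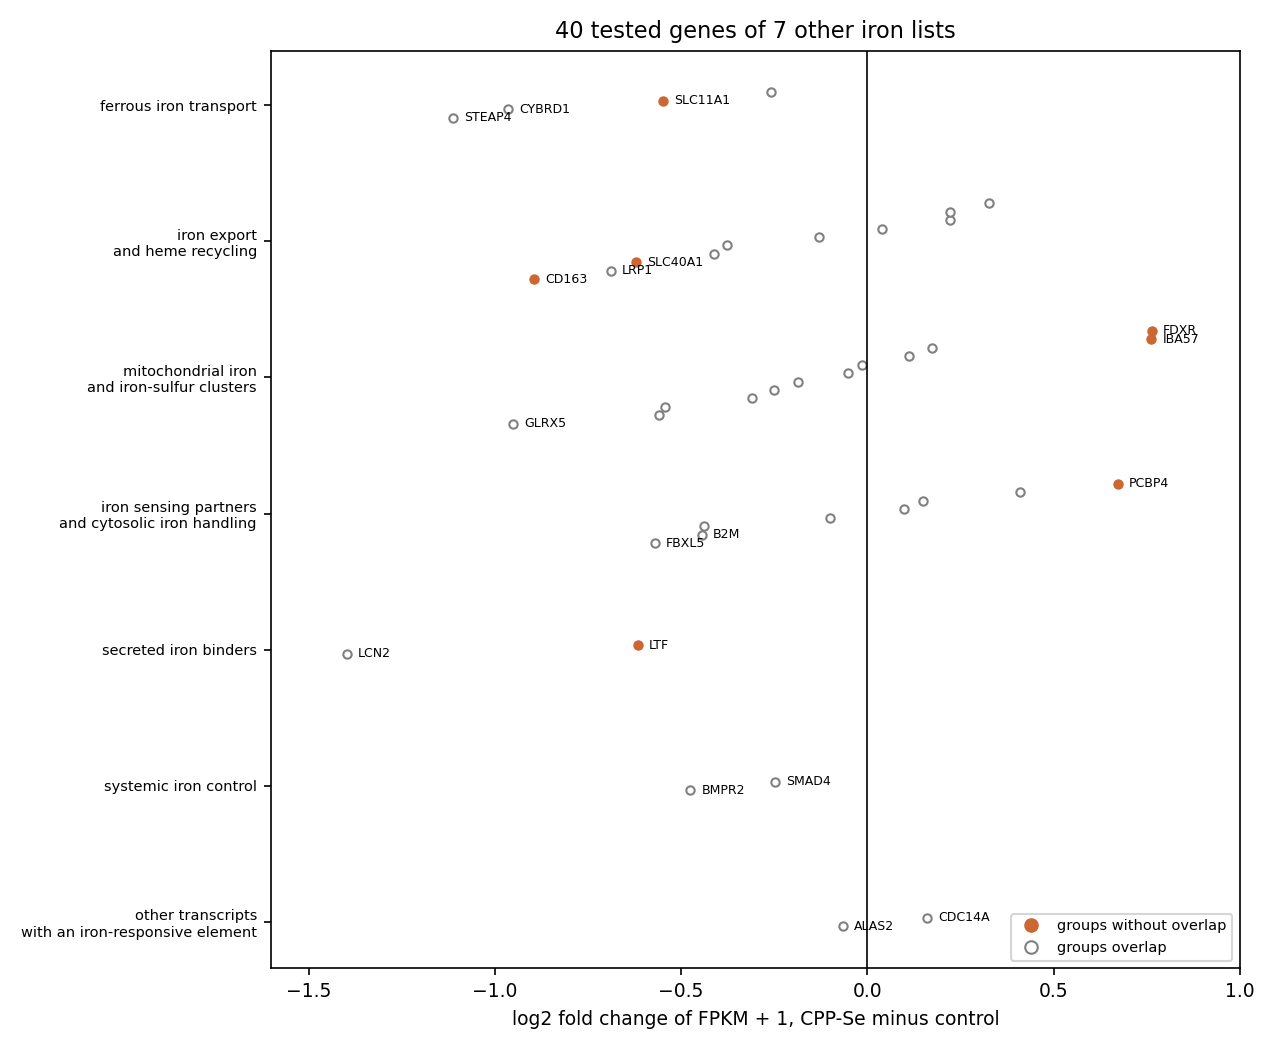
Log2 fold change (CPP-Se minus control) of FPKM + 1 for the 40 tested genes of the 7 further iron lists, with 1 point per gene; filled points are genes whose groups did not overlap, and names are given for these and for up to 3 genes per list. In deposited FPKM the filled points are SLC11A1, SLC40A1, CD163 and LTF below 0, and IBA57, FDXR and PCBP4 above 0.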

How the data were processed

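The authors extracted RNA with Trizol, enriched poly-A mRNA, built NEBNext Ultra libraries, aligned paired reads with HISAT2 2.0.5 (dog genome, Ensembl release 100), assembled them with StringTie 1.3.3b and deposited FPKM, from the length and reads of each gene. The submitters' processing notes also name fastp 0.19.7 and featureCounts 1.5.0-p3. Gene length, in bases, stands beside the deposited FPKM. The library size behind the FPKM, the use of strand and the handling of shared reads are not stated. The labels call the replicates biological.

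Whole reads were recovered for 100% of the genes (tolerance 0.01) by dividing FPKM times length by the value of 1 read in each library. Precision is set by these reads and by 3 dogs per group, and the floor of 3 reads covers counting error only. The 9847 genes whose mean was 1 FPKM or more were tested on log2(FPKM + 1) in R 4.3.3 with limma 3.58.1 (lmFit, then eBayes with trend). Tests were two-sided, and p was adjusted over all these genes after Benjamini and Hochberg. Other steps used numpy 2.4.6, pandas 2.3.3, scipy 1.17.1 and matplotlib 3.10.9 under Python 3.11.15. The negative binomial model had the implied library size as offset, dispersions shrunk to a trend and a Wald test. Both tests were tried on simulated reads of 9847 genes with 200 changed 4-fold, of which limma called 156 and the negative binomial model 164, besides 9 and 11 unchanged genes. With no gene changed they called 3 and 0. The simulated reads had the same dispersion in every gene, which was not fitted to these dogs. These shares therefore do not give the power of the tests for the iron genes. Gene ratios were compared by exact permutation.

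The members and gene lists were chosen with earlier results of these data known, and 1 gene is not reported here. Named were all members, and of each other iron list the called genes or otherwise up to 3 tested genes with the largest absolute log2 fold change. HAMP and the genes said to be taken up once their values were known stand outside this rule. For the likeness of genes, the pair of iron genes with the largest spread was taken.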

Additional observations from a re-analysis of the deposited data

How the results depend on the processing

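The count of iron genes called was 0 in every setting tried: pseudocount 0.1, no filter, a mean of at least 10 reads, 3 other scalings, eBayes without a trend or robust, array weights, a replicate block, limma-voom alone and weighted by sample quality, the negative binomial model, an adjusted p under 0.1, and each dog left out in turn. Of 180 alternative values for the 9 iron genes, 177 kept their direction and side of the thresholds, and 3 turned direction, namely NCOA4 (-0.029) and ACO1 (-0.015) without CPP-Se replicate 3 and STEAP3 (-0.059) without control replicate 1. Many of the 177 could not turn. No filter, a mean of at least 10 reads, eBayes without a trend or robust, the replicate block and the other adjusted p threshold leave the log2 fold change as it was. With each dog left out, NCOA4 lay between -0.029 and 0.78, ACO1 between -0.015 and 0.18 and STEAP3 between -0.059 and 0.55. The number of iron genes whose groups did not overlap, 0 with all dogs, was 0 to 3 with a dog left out, with 3 without CPP-Se replicate 3, while 29.7% (without control replicate 1) to 36.3% (without CPP-Se replicate 3) of all genes tested did not overlap. The number of genes called over the whole table, 3 in the test reported (0 higher and 3 lower), was 12 with a common sum (8 higher and 4 lower with CPP-Se), 1 with limma-voom, 156 with sample quality weights, 442 with the negative binomial model, 1 with a mean of at least 10 reads, 0 with no filter, 0 with a pseudocount of 0.1, 1 with the replicate block, and 0 to 14 with a dog left out, with 14 without CPP-Se replicate 2. Same-numbered dogs did not deviate together (correlations of 0.02, -0.09 and -0.04 across genes), and nothing in the labels pairs them. The replicate block changed no call of an iron gene. A common sum raised the median log2 fold change of all genes by 0.13, a common sum without hemoglobin genes by 0.12 and a median of ratios by 0.012. The cause of the other differences was not tested.

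The difference in the log2 ratio of FTH1 to FTL turned to 0.14 with unnamed ferritin genes added, to 0.050 with FTH1 on chromosome 18 alone, which was chosen after seeing the data, and lay between -0.13 and 0.15 with a dog left out. That of TFRC to FTH1 stayed above 0, between 0.34 and 1.21. Of the other named genes, the light chain copy ENSCAFG00000002336 turned to 0.064 without CPP-Se replicate 2 and 0.13 without control replicate 3 (-0.40 to 0.13 with each dog left out), and ALAS2 turned to 0.081 with a common sum outside hemoglobin, 0.090 with a common sum, 0.31 without CPP-Se replicate 2 and 0.21 without control replicate 2 (-0.34 to 0.31 with each dog left out). TFRC, HFE, FDXR, CD163, CYBRD1, GLRX5 and BMPR2 rest on fewer than 100 reads per dog, and TFR2 is not measurable at this depth.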
